A study of Mus musculus with 16 samples.

Results

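The cells described here are the CD45+ sorted cells to which the authors gave the name hematopoietic stem cells, spelled Hematoietic_stem_cells in their table. There were 457 such cells in the library from CD200R-deficient (KO) mice and 445 in the library from wild type (WT) mice, together 902 of 9524 sorted cells and of 20376 cells in the series. They were compared with the cells named B cells in the same libraries, 943 in KO and 972 in WT, and between the genotypes. Their RNA did not match the name. B cell markers were found in most of them, most blood stem cell markers were at or near 0, and they had few UMIs (molecule barcodes, by which copies of the same captured RNA are counted once) and a high mitochondrial share. Their median UMIs per cell, 956 in KO and 1087 in WT, compare with 3127 in KO and 4665 in WT over all sorted cells of the library, and no stem cell marker was among their leading genes. No other cell type name is given to them here, and they are called the named stem cells.

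The study placed NB9464D cells, a mouse neuroblastoma line, under the skin of male C57BL/6 mice aged 8 weeks. The KO hosts are labelled CD200R-/-, although the growth protocol writes CD200-/-, and the WT hosts are labelled wild type. No drug is named for either genotype, and all grafts came from the same line, so the labels give the genotype for the host and not for the tumor cell. Tumors were taken on day 28 and digested with type IV collagenase at 1 mg/mL, and CD45+ leukocytes or all tumor cells were captured with 10x Genomics 3' chemistry. The labels list 4 samples for each genotype and preparation, but each cell carries only the name of its combination, so every group is 1 library. No spread between mice could be measured, no test was made, and the 95% intervals below cover counting error only. The genotype cannot be told apart from differences between the mice, grafts or preparations of the 2 groups.

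B cells carry an antigen receptor made of immunoglobulin chains and the signalling pair Cd79a and Cd79b, and their identity depends on the transcription factors Ebf1 and Pax5. Blood stem cells live mainly in bone marrow and are marked by Kit, Procr, Mecom, Hlf and Fgd5, most of which mature B cells lack. Mitochondria carry their own genome and transcripts, which stay inside the organelle, whereas most messenger RNA lies free in the cytoplasm and Malat1 RNA stays in the nucleus. In single-cell data a high mitochondrial share with few UMIs is commonly used as a sign of a damaged cell.

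The named stem cells were 10.6% of sorted cells in KO (95% Clopper-Pearson interval 9.71 to 11.6) and 8.53% in WT (7.78 to 9.32). They held only 2.13% of the KO library's UMIs and 1.32% of the WT library's UMIs. As a share of cells named either stem cells or B cells they made up 32.6% in KO and 31.4% in WT. Of the barcodes of the named stem cells, 0 of 457 in KO and 5 of 445 in WT also occurred in the other sorted library, and the 2 sorted libraries shared 72 barcodes in all. Cells with at least 3 markers of each of 2 lineages were taken as possible doublets and were kept. They were 8 of the KO named stem cells (1.75%) and 29 of the WT named stem cells (6.52%). The share was 0.424% of KO and 14.2% of WT B cells, and 10.2% of KO and 22.8% of WT sorted cells as a whole. These shares were taken without matching the depth of the cells, and are not measured doublet rates. At least 3 macrophage markers alone were found in 2.84% of KO and 8.99% of WT named stem cells. In B cells they were found in 0.424% of KO and 13.9% of WT cells.

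Each named stem cell gave little RNA. The median was 956 UMIs in KO (quartiles 693 and 1823) and 1087 in WT (768 and 2841), against 2168 UMIs in KO B cells and 3118 in WT B cells. It was the lowest among the 16 names with at least 50 cells in the KO sorted library and the 14 in the WT sorted library, whose median over all other sorted cells was 3545 UMIs in KO and 5452.5 UMIs in WT. The median number of genes was 512 in KO and 569 in WT named stem cells, against 1080 in KO and 1175 in WT B cells.

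Their mitochondrial share was high. The median was 18.4% of a cell's UMIs in KO named stem cells and 13.2% in WT named stem cells, against 7.64% in KO B cells and 4.64% in WT B cells. Only the cells named cancer stem cells had a higher median in either sorted library, 56.8% in KO and 59.8% in WT. Over 10% mitochondrial UMIs were found in 67.0% of KO and 59.1% of WT named stem cells, against 13.5% of KO and 3.91% of WT B cells. Over 20% were found in 43.5% of KO and 26.3% of WT named stem cells, against 0.742% of KO and 0.412% of WT B cells. The cells above 10% are therefore most of the class in each genotype and few of the B cells.

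Messages for ribosomal proteins, which are short and abundant in the cytoplasm of lymphocytes, were scarce. Their median share was 3.27% in KO and 6.61% in WT named stem cells, against 18.8% in KO and 31.0% in WT B cells. Among the sorted names only neutrophils had a lower median. Malat1, a long RNA kept in the nucleus, had a median share of 3.46% in KO and 5.53% in WT named stem cells, against 2.51% in KO and 2.30% in WT B cells. In both classes the mitochondrial median was higher and the ribosomal protein median lower in KO than in WT, whereas the Malat1 median was lower in KO named stem cells and higher in KO B cells.

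**Figure D1:**
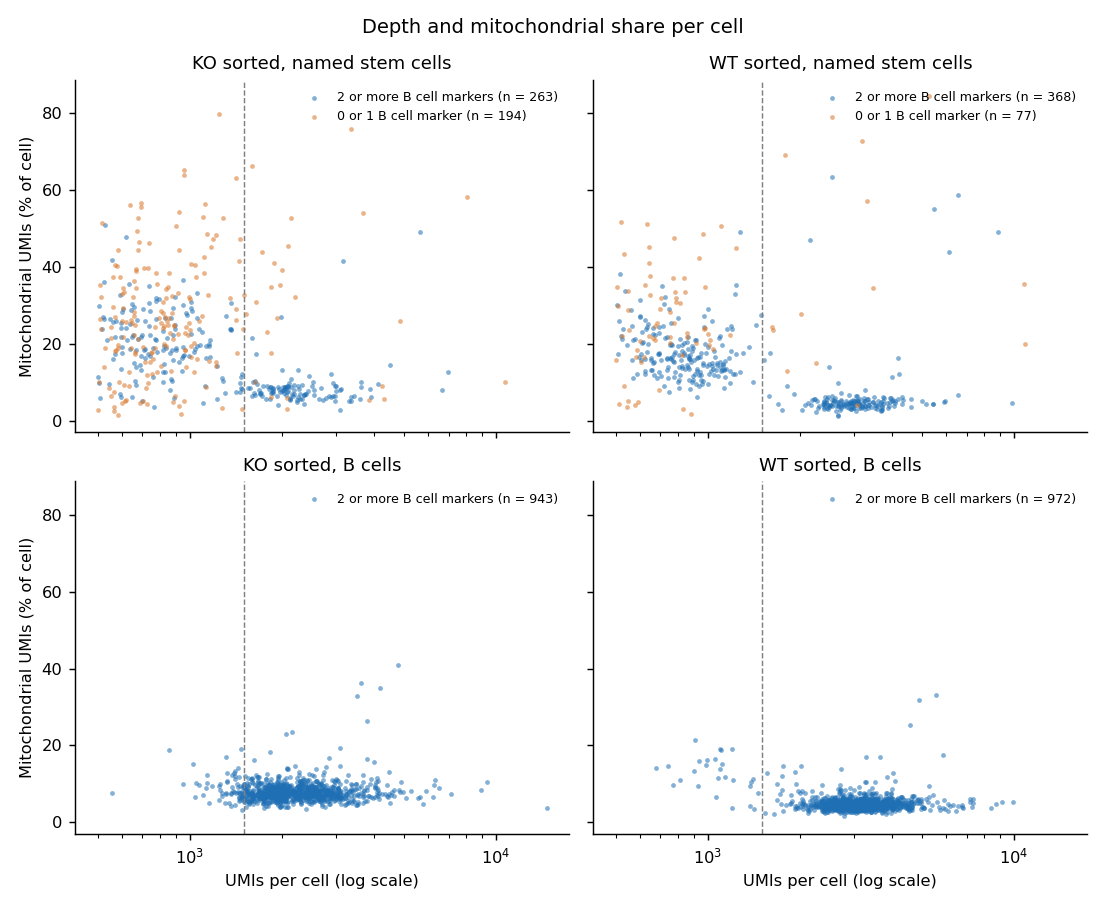
Each point is 1 cell, with its UMIs on a log axis and its mitochondrial share in percent; the rows are named stem cells and B cells, the columns KO and WT, and colors separate cells with 2 or more B cell markers from the rest. The dashed line marks 1500 UMIs: named stem cells lie in a shallow cloud with medians of 22.3% in KO and 17.5% in WT and a deeper cloud at 8.25% in KO and 4.63% in WT, and B cells lie almost wholly in the deeper one.

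The plot of UMIs against mitochondrial share shows that the class holds cells of 2 depth ranges. Under 1500 UMIs, a limit set after the values were seen, there were 316 KO cells (69.1%) and 259 WT cells (58.2%). These shallow cells had a median mitochondrial share of 22.3% in KO and 17.5% in WT. Their ribosomal protein share was 2.28% in KO and 4.596% in WT, and their Malat1 share was 4.41% in KO and 8.51% in WT. The 141 KO and 186 WT cells with 1500 UMIs or more had a mitochondrial share of 8.25% in KO and 4.63% in WT. Their ribosomal protein share was 17.0% in KO and 30.5% in WT, and their Malat1 share was 2.72% in KO and 2.75% in WT, each within 2 percentage points of the B cell median of the same library. The median values of the whole class thus lie between those of its 2 ranges.

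Few B cells were so shallow, 64 in KO and 27 in WT. The shallow B cells of KO had 8.08% mitochondrial and 17.4% ribosomal protein UMIs, close to deeper KO B cells at 7.61% and 18.9%. The shallow B cells of WT had 11.7% mitochondrial, 4.85% ribosomal protein and 7.09% Malat1 UMIs. The ribosomal protein value was near the 4.596% of the shallow WT named stem cells, whose mitochondrial and Malat1 medians were 17.5% and 8.51%. The shallow named stem cells had a higher mitochondrial median than the shallow B cells in both genotypes. They were also shallower, with a median of 782 UMIs in KO and 806 UMIs in WT, against 1381 UMIs in KO and 1098 UMIs in WT B cells.

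The 4 genes that marked the class are all B cell genes. Ebf1 (chromosome 11, 44617317 to 45008091 in mm10, plus strand), the factor that sets B cell fate, had 1901 CPM (UMIs of the pooled cells scaled to the same total in every group) in KO and 2677 CPM in WT named stem cells, against 2542 CPM in KO and 2199 CPM in WT B cells. Cd79a (chromosome 7, 24897381 to 24902197, plus strand), a signalling chain of the B cell receptor, had 1297 CPM in KO and 3002 CPM in WT named stem cells, against 2355 CPM in KO and 3835 CPM in WT B cells. Bank1 (chromosome 3, 136053363 to 136326066, minus strand), a scaffold of B cell receptor signalling, had 835 CPM in KO and 640 CPM in WT named stem cells, against 1282 CPM in KO and 665 CPM in WT B cells. Fcer2a (chromosome 8, 3681737 to 3694175, minus strand), the low-affinity IgE receptor CD23 of follicular B cells, had 571 CPM in KO and 501 CPM in WT named stem cells, against 804 CPM in KO and 478 CPM in WT B cells. All 4 were lower in named stem cells than in B cells in KO, while in WT only Cd79a was lower by more than its counting interval and Ebf1 was higher.

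A UMI of Ebf1 was found in 54.9% of KO and 81.6% of WT named stem cells, and of Cd79a in 51.2% of KO and 80.2% of WT. With every cell thinned to 500 UMIs these shares were 41.6% in KO and 66.5% in WT for Ebf1, and 36.5% in KO and 65.6% in WT for Cd79a. Cells named T cells (CD4, CD8 and CD8 effector; 617 in KO and 637 in WT), which should lack both genes, had Ebf1 in 0.324% of KO and 0.314% of WT cells after thinning. They had Cd79a in 0.324% of KO and 0.471% of WT cells. The T cells were deeper before thinning, with a median of 3337 UMIs in KO and 4957 UMIs in WT. The part of free RNA in the named stem cells was not tested.

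Of 16 B cell markers, at least 2 were detected in 263 of 457 KO named stem cells (57.5%, interval 52.9 to 62.1) and in 368 of 445 WT named stem cells (82.7%, 78.9 to 86.1). All B cells of both genotypes met this criterion. After thinning to 500 UMIs the shares were 56.2% in KO and 81.8% in WT named stem cells and 99.9% in KO and 99.4% in WT B cells. In T cells they were 14.6% in KO and 16.2% in WT, or 1.30% and 0.628% after thinning, and in neutrophils 2.30% in KO and 1.62% in WT. The share was lower in KO than in WT in both depth ranges, with 47.2% in KO against 75.3% in WT under 1500 UMIs and 80.9% in KO against 93.0% in WT above it.

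Summed over the 16 markers, the level was 10839 CPM in KO and 14618 CPM in WT named stem cells, against 18336 CPM in KO and 15982 CPM in WT B cells. T cells had 387 CPM in KO and 316 CPM in WT. Among the cells with at least 2 markers the sum was 16507 CPM in KO and 16574 CPM in WT. By depth it was 18675 CPM in KO and 28386 CPM in WT under 1500 UMIs, and 15526 CPM in KO and 13028 CPM in WT above it, so the order of the genotypes turned with depth. These sums follow in part from the criterion itself and are given as a description. The cells with 0 or 1 marker had 235.5 CPM in KO and 163 CPM in WT, low sums that follow from their choice. The T cells were not chosen by this criterion, so the 2 levels cannot be compared.

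**Figure D2:**
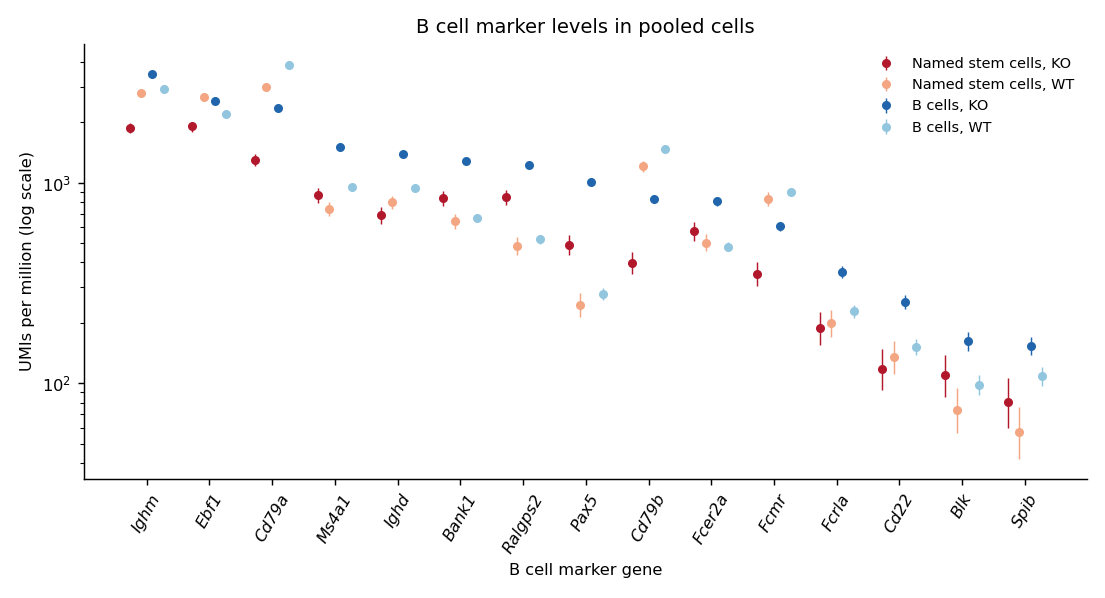
Points give the level of B cell markers in pooled cells, in CPM on a log axis, with 95% Poisson intervals, for named stem cells of KO and WT and B cells of KO and WT. In KO every plotted named stem cell point lies below its B cell point, and in WT most pairs lie close together, with Ebf1 at 2677 CPM in named stem cells and 2199 CPM in B cells.

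The immunoglobulin heavy chain gene Ighm had 1863 CPM in KO and 2801 CPM in WT named stem cells, against 3455 CPM in KO and 2933 CPM in WT B cells. The CD20 gene Ms4a1 had 865 CPM in KO and 737 CPM in WT named stem cells, against 1500 CPM in KO and 946 CPM in WT B cells. Pax5, which keeps B cells committed, had 491 CPM in KO and 246 CPM in WT named stem cells, against 1009 CPM in KO and 279 CPM in WT B cells. Cd79b, the partner of Cd79a, had 399 CPM in KO and 1202 CPM in WT named stem cells, against 831 CPM in KO and 1470 CPM in WT B cells. Pax5 was thus the higher in KO and Cd79b the lower in KO, in named stem cells and B cells alike. Of the remaining markers, Ighd, Ralgps2, Fcmr, Fcrla, Cd22, Blk and Spib lay between 80.4 CPM (Spib) and 843 CPM (Ralgps2) in KO and between 57.0 CPM (Spib) and 829 CPM (Fcmr) in WT named stem cells.

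Most blood stem cell markers were at or near 0. Of 16 such markers, 9 had any UMI in each genotype, and their sum was 293 CPM in KO and 261 CPM in WT named stem cells, against 279 CPM in KO and 472 CPM in WT B cells. Ly6a, which encodes Sca-1 and is also made by activated lymphocytes, made up most of the B cell sum and had 140 CPM in KO and 212 CPM in WT named stem cells, against 231 CPM in KO and 440 CPM in WT B cells. Slamf1, the adhesion receptor CD150, had 46.6 CPM in KO and 29.1 CPM in WT named stem cells, against 38.4 CPM in KO and 29.1 CPM in WT B cells. At least 2 of the 16 were found in 2.41% of KO and 2.47% of WT named stem cells and in 3.08% of KO and 4.63% of WT B cells. After thinning the shares were 0.438% in KO and 0 in WT named stem cells, and 0.212% in KO and 0.309% in WT B cells.

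The genes that define blood stem cells most narrowly were not detected or rare. Mecom, Hoxa9, Fgd5 and Hoxb5 had 0 UMIs in both genotypes, which, at a limit of 3 cells, allows up to 0.656% of KO and 0.674% of WT cells with a UMI. Hlf had 9 UMIs in 3 KO cells and 0 in WT, Cd34 had 2 UMIs in KO and 1 in WT, and Procr had 0 in KO and 1 in WT. Flt3 had 6 UMIs in KO and 3 in WT, and Meis1 had 3 UMIs in each. Gata2 had 10 UMIs in KO and 1 in WT, Tal1 had 4 in KO and 0 in WT, and Ctnnal1 had 0 in KO and 2 in WT. Kit, the stem cell factor receptor, had 32 UMIs in KO and 5 in WT, of which 27 in KO and 4 in WT came from the cells with mast cell markers described next. Kit is also a receptor of mast cells.

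A few cells with mast cell markers were counted in the class. Cma1, Mcpt4, Cpa3 and Tpsb2, proteases stored in the granules of connective tissue mast cells, had 1039 UMIs in KO and 301 UMIs in WT. All of them came from 4 KO cells and 1 WT cell, each with at least 2 mast cell markers. The KO cells had between 2071 and 4295 UMIs, and the WT cell had 3059 UMIs. The mean level of Cma1, 634 CPM in KO and 176 CPM in WT, therefore describes 5 cells and not the class, and Cma1, Mcpt4 and Tpsb2 have close relatives among the mast cell proteases.

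T cell and natural killer (NK) cell markers were found in cells of both genotypes. At least 2 of 12 T cell markers were detected in 91 KO cells (19.9%) and 44 WT cells (9.89%) of the class, against 0.636% of KO and 1.13% of WT B cells. After thinning the shares were 13.6% in KO and 8.76% in WT named stem cells, and 0 in B cells of both genotypes. At least 2 of 8 NK cell markers were detected in 32 KO cells (7.002%) and 4 WT cells (0.899%), or 2.19% of KO and 0.899% of WT after thinning. The summed level of T cell markers was 883 CPM in KO and 387 CPM in WT named stem cells, against 51.4 CPM in KO and 51.5 CPM in WT B cells.

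Other lineages were sparse. Macrophage markers, at least 2 of 10, were found in 6.78% of KO and 29.2% of WT named stem cells, but also in 5.41% of KO and 38.1% of WT B cells and in 5.02% of KO and 37.7% of WT T cells. At 500 UMIs the share was 2.63% in KO and 8.99% in WT named stem cells, against 0.424% in KO and 4.53% in WT B cells and 0.324% in KO and 2.83% in WT T cells. Plasma cell markers, at least 2 of 11, were in 6.13% of KO and 10.1% of WT named stem cells and in 25.9% of KO and 21.2% of WT B cells, which share Irf4 and Mzb1 with plasma cells. Neutrophil, dendritic cell, fibroblast and red cell lists were each met by under 2% of named stem cells in both genotypes.

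**Figure D3:**
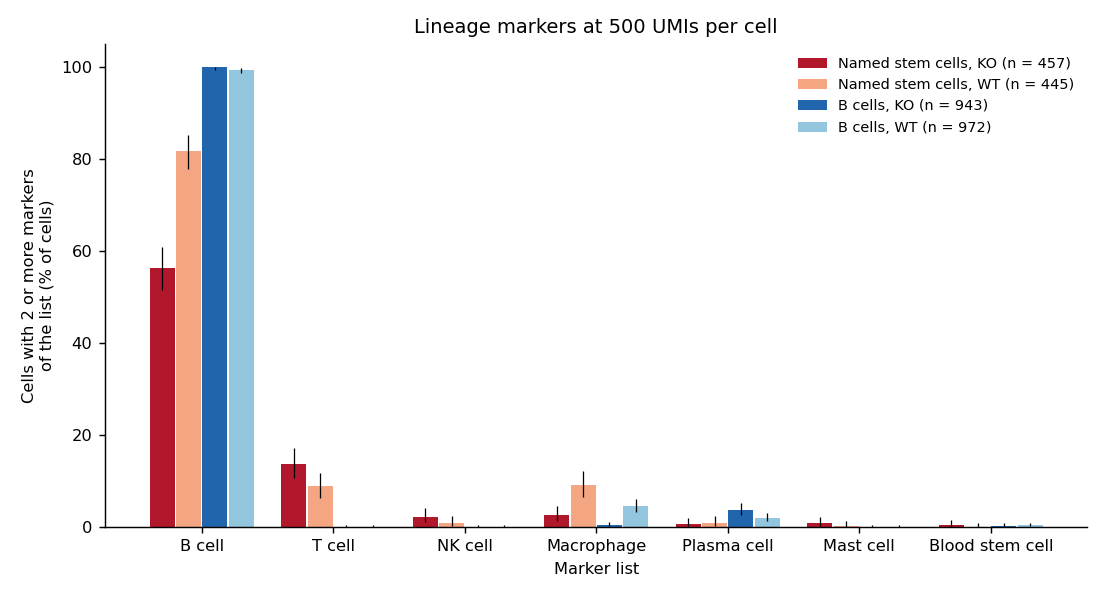
Bars give the share of cells, in percent, with at least 2 markers of each lineage list after every cell was thinned to 500 UMIs, with 95% Clopper-Pearson intervals, for named stem cells of KO and WT and B cells of KO and WT. B cell markers were found in 56.2% of KO and 81.8% of WT named stem cells, T cell markers in 13.6% of KO and 8.76% of WT, and blood stem cell markers in under 0.5% of either.

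By these lists, 255 KO cells (55.8%) and 363 WT cells (81.6%) had B cell markers without T or NK cell markers. Another 105 KO cells (23.0%) and 41 WT cells (9.21%) had T or NK cell markers without B cell markers, and 8 KO and 5 WT cells had both. Macrophage, neutrophil, dendritic or mast cell markers alone were found in 25 KO cells (5.47%) and 17 WT cells (3.82%). None of these B, T, NK, macrophage, neutrophil, dendritic and mast cell lists was met by 64 KO cells (14.0%) and 19 WT cells (4.27%). The stem cell, plasma cell, fibroblast and red cell lists were not used in this division. The cells with T or NK cell markers alone had a median of 856 UMIs and 26.0% mitochondrial UMIs in KO, and 752 UMIs and 23.8% in WT. Those that met none of the lists used here had 724 UMIs and 26.7% in KO, and 646 UMIs and 32.0% in WT. The cells with B cell markers alone had 1158 UMIs and 11.4% in KO, and 1226 UMIs and 11.2% in WT. Those with macrophage, neutrophil, dendritic or mast cell markers alone had 1009 UMIs and 16.7% in KO, and 1637 UMIs and 23.7% in WT. Cells with B and T or NK cell markers together had 2217.5 UMIs in KO and 888 UMIs in WT. The part of depth and RNA quality in the difference between the genotypes was not tested.

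The targeted gene was too weak in the class to check the labels. Cd200r1 had 0 UMIs in KO and 2 UMIs in 2 cells in WT named stem cells, against 0 UMIs in KO and 3 UMIs in WT B cells. In T cells it had 0 UMIs in KO and 24 UMIs in WT. The T cell counts go in the direction of the labels, while those of named stem cells and B cells are too small to give a direction. Counts of other sorted cells are not reported here.

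In pooled UMIs, where deeper cells weigh more, a small share of genes separated the named stem cells from B cells. Ratios here are of summed levels, relative to the median gene, for genes with at least 50 UMIs over both groups. In KO, 276 of 6012 genes (4.59%) were at least 2-fold higher in named stem cells than in B cells and 153 (2.54%) were at least 2-fold lower. In WT, 181 of 6131 genes (2.95%) were higher and 132 (2.15%) were lower. With scaling to total UMIs the split was 243 higher and 211 lower in KO, and 204 higher and 116 lower in WT. With equal weight per cell, 819 genes (13.6%) in KO and 962 genes (15.7%) in WT were past 2-fold. That split was 408 higher and 411 lower in KO, and 400 higher and 562 lower in WT. Both genotypes shared 71 higher and 11 lower genes among 5416 measured in both, and 0 genes went opposite ways. Because the authors' names came from the same RNA, these ratios are a description.

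Genes are named here from 1125 with at least 100 UMIs in each library over both classes and 100 CPM in 1 class, of which 20 were higher and 3 lower past 2-fold in both genotypes. The 8 of these with the highest ratio in KO were Cma1, Mcpt4, Fcer1g, Txk, Rgs1, S100a6, Egr1 and Ctsd. Fcer1g, a signalling chain of Fc receptors in mast, NK and myeloid cells, had 122 CPM in KO and 120 CPM in WT named stem cells, against 10.7 CPM in KO and 55.3 CPM in WT B cells. Txk, a T and NK cell kinase, had 232 CPM in KO and 118 CPM in WT named stem cells, against 23.2 CPM in KO and 11.8 CPM in WT B cells. Of its 144 KO and 97 WT UMIs, 128 in KO and 83 in WT lay in cells with 0 or 1 B cell marker. Rgs1, a regulator of G protein signalling in activated lymphocytes, had 512 CPM in KO and 227 CPM in WT named stem cells, against 62.6 CPM in KO and 75.1 CPM in WT B cells. S100a6, a calcium-binding protein, had 191 CPM in KO and 137 CPM in WT named stem cells, against 35.3 CPM in KO and 50.5 CPM in WT B cells. Ctsd, a lysosomal protease, had 212 CPM in KO and 175 CPM in WT named stem cells, against 47.8 CPM in KO and 82.5 CPM in WT B cells.

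Egr1, an immediate early transcription factor, had 595 CPM in KO and 441 CPM in WT named stem cells, against 125 CPM in KO and 116 CPM in WT B cells (log2 ratios of 2.32 in KO and 1.89 in WT). Cells with at least 2 B cell markers held 269 of its 370 UMIs in KO and 349 of 364 in WT. They held 80 of 318 Rgs1 UMIs in KO and 88 of 187 in WT, 30 of 119 S100a6 UMIs in KO and 62 of 113 in WT, and 32 of 132 Ctsd UMIs in KO and 84 of 144 in WT. Egr1 was seen in 77 KO and 101 WT cells of the class. With only cells under 10% mitochondrial UMIs the log2 ratio of Egr1 was 3.13 in KO and 2.44 in WT, higher than over all cells.

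The 3 lower genes were Iglc1, Ifi27l2a and Pxdc1. Iglc1, a lambda light chain constant gene with near-identical neighbours that could share its reads, had 40.2 CPM in KO and 314 CPM in WT named stem cells, against 182 CPM in KO and 726 CPM in WT B cells. Ifi27l2a, an interferon-induced gene, had 134 CPM in KO and 241 CPM in WT named stem cells, against 390 CPM in KO and 667 CPM in WT B cells. Pxdc1 had 85.3 CPM in KO and 58.2 CPM in WT named stem cells, against 192 CPM in KO and 122 CPM in WT B cells. With cells under 10% mitochondrial UMIs 2 of these genes were short of 2-fold, with a log2 ratio of -0.64 for Pxdc1 in KO and -0.70 in WT, and of -0.77 for Iglc1 in WT.

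Among the gene lists, mitochondrial RNA and the list taken as nuclear-retained RNA were higher in named stem cells than in B cells. A member counts here with at least 20 UMIs and a 1.5-fold difference, which 17.8% of all genes passed upwards and 13.9% downwards in KO, and 16.4% and 13.2% in WT. All 13 protein genes of the mitochondrial genome were higher in named stem cells than in B cells in both genotypes, with a median log2 ratio of 1.11 in KO and 1.30 in WT, against 0.03 and 0.04 for all genes. Single genes ran between 0.84 (mt-Nd6) and 1.29 (mt-Co3) in KO and between 1.06 (mt-Nd5) and 1.57 (mt-Atp8) in WT. Of the list taken as nuclear-retained RNAs, 4 of 6 measured in KO (median 0.66) and 5 of 6 in WT (1.14) were higher. It was led by Gm42418 in KO and Gm26917 in WT. Whether the counts of these 2 genes come from nuclear-retained RNA was not tested. Gm42418 had 5823 CPM in KO and 1899 CPM in WT named stem cells, against 1933 CPM in KO and 918 CPM in WT B cells.

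Of the 16 B cell markers 0 were higher and 11 lower in KO (median log2 ratio -0.76), whereas in WT 0 were higher and 1 was lower (-0.22), the 1 being Spib. MHC class II genes, which present peptides to helper T cells, were 0 higher and 6 lower of 9 in KO (-0.65) and 0 higher and 1 lower of 9 in WT (-0.38). H2-Aa, an MHC class II chain, had 3256 CPM in KO and 4263 CPM in WT named stem cells, against 5037 CPM in KO and 5129 CPM in WT B cells. B cell receptor signalling genes were 0 higher and 8 lower of 20 in KO (-0.45) and 0 higher and 1 lower of 20 in WT (-0.21). Follicular and homing genes were 0 higher and 6 lower of 14 in KO (-0.51) and 0 and 0 of 14 in WT (-0.02). B cell transcription factors were 0 higher and 4 lower of 18 in KO (-0.44) and 0 higher and 1 lower of 18 in WT (-0.23).

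T cell markers were higher for 11 of 11 measured in KO and 9 of 10 in WT. NK cell markers were higher for 4 of 4 measured in KO and 1 of 1 in WT. Macrophage markers were higher for 6 of 6 measured in KO (median 1.80) and 8 of 9 in WT (0.91). Il7r, the interleukin 7 receptor chain of T cells and of B cell precursors, was the highest of the B cell precursor list in both genotypes. Lef1, which is also on the T cell marker list, came next in both genotypes. The B cell precursor list had 3 of 5 measured members higher in KO and 4 of 4 in WT. Among named stem cells with at least 2 B cell markers, only Cecr2 of that list reached 20 UMIs over both genotypes. The surrogate light chain gene Vpreb1 and Dntt, an enzyme of receptor gene assembly, were below the 20 UMI minimum. Dissociation stress genes, immediate early and heat shock genes that react to tissue digestion, were 7 higher and 0 lower of 18 in KO (0.25) and 8 higher and 0 lower of 18 in WT (0.53), led by Egr1 and Atf3. Interferon response genes were 3 higher and 5 lower of 19 in KO (0.10) and 2 higher and 11 lower of 18 in WT (-0.63). Genes of a joint germinal center and cell cycle list were 4 higher and 0 lower of 7 in KO (0.76). In WT they were 3 higher and 1 lower of 9 (0.30), and Mki67 and Top2a led in both. Housekeeping messages of the cytoplasm, such as Actb and Tmsb4x, were 0 higher and 2 lower of 16 in each genotype, a lower share close to that of all genes, with medians of -0.38 in KO and -0.45 in WT.

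Within the cells with at least 2 B cell markers, RNA makeup again followed depth. The list of cytoplasmic housekeeping genes summed to 16836 CPM in KO and 18070 CPM in WT in the shallow marked cells (149 in KO and 195 in WT). In the deep marked cells (114 in KO and 173 in WT) it summed to 38563 CPM in KO and 57135 CPM in WT, and in B cells to 40401 CPM in KO and 60084 CPM in WT. The list taken as nuclear-retained RNAs, mostly Malat1, summed to 59704 CPM in KO and 95189 CPM in WT shallow marked cells. In B cells it summed to 31497 CPM in KO and 25041 CPM in WT. The dissociation stress list stood at 23510 CPM in KO and 29850 CPM in WT in deep marked cells, against 16770 CPM in KO and 21538 CPM in WT B cells. In the shallow marked cells the stress list stood at 13578 CPM in KO and 17236 CPM in WT, below B cells of the same genotype.

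**Figure D4:**
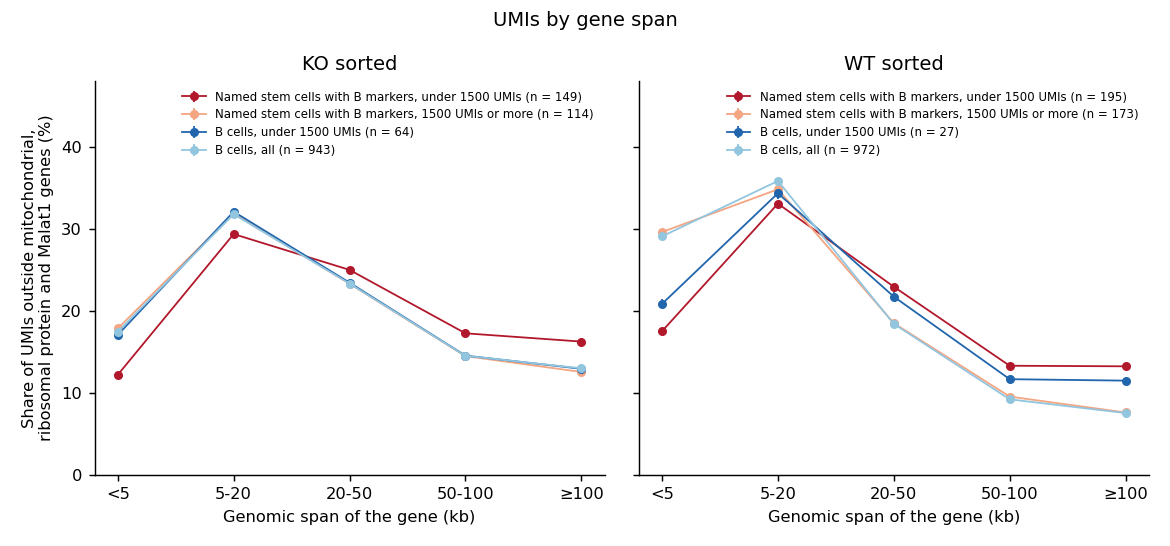
Points give the share of UMIs, in percent, from genes grouped by the length of their locus, outside mitochondrial, ribosomal protein and Malat1 genes, for 4 sets of cells in KO (left) and WT (right), with 95% Clopper-Pearson intervals that are mostly smaller than the points. Shallow named stem cells with B cell markers had fewer UMIs from the shortest loci, 12.2% in KO and 17.5% in WT, and deep ones lay on the B cell line at 17.8% in KO and 29.6% in WT.

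The length of the gene locus separated the same sets, a description added after the values were seen. Loci were taken from GENCODE M21 on mm10, and mitochondrial, ribosomal protein and Malat1 UMIs were left out. Genes spanning under 5000 bases gave 12.2% of UMIs in KO and 17.5% in WT shallow marked cells, against 17.4% in KO and 29.1% in WT B cells. Genes spanning at least 100000 bases gave 16.2% in KO and 13.2% in WT shallow marked cells, against 12.98% in KO and 7.52% in WT B cells. Deep marked cells had 17.8% in KO and 29.6% in WT from the shortest loci and 12.5% in KO and 7.60% in WT from the longest, close to B cells. The 27 shallow B cells of WT had 20.8% and 11.5%, between both, while the 64 shallow B cells of KO had 17.1% and 12.9%, like other KO B cells. Long loci have more intron sequence, and intronic reads could not be told apart from exonic ones in these counts.

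Between the genotypes, ratios were compared in named stem cells and in B cells of the same libraries. Of 3791 genes in named stem cells, 363 (9.58%) were at least 2-fold higher in KO and 552 (14.6%) at least 2-fold lower, relative to the median gene. In B cells 722 of 7285 genes (9.91%) were higher in KO and 1146 (15.7%) lower. By total UMIs the median gene was higher in KO by a log2 ratio of 0.33 in named stem cells and 0.45 in B cells. With that scaling the split was 758 higher and 280 lower in named stem cells and 1837 higher and 446 lower in B cells, so the balance of directions depends on the scale. Among named stem cells with at least 2 B cell markers, 297 of 2988 genes (9.94%) were higher in KO and 408 (13.7%) lower.

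The genes highest in KO named stem cells relative to WT included Ikzf2, Tpsb2, Cpa3, Dgat1, Cd28, Il2rb and Nr4a2. Ikzf2, a transcription factor of regulatory T cells also called Helios, had 274 UMIs in 65 KO cells and 5 UMIs in 5 WT cells (441 CPM in KO, 6.06 CPM in WT; log2 ratio 5.86, interval 4.62 to 7.49). Of these, 254 KO and 4 WT UMIs lay in cells with 0 or 1 B cell marker. Cd28, the costimulatory receptor of T cells, had 347 CPM in KO and 30.3 CPM in WT, with 200 of 216 KO and 25 of 25 WT UMIs in such cells. Il2rb, an interleukin 2 and 15 receptor chain of T and NK cells, had 158 CPM in KO and 14.5 CPM in WT.

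The T and NK cell genes were not highest in the class. Ikzf2 was highest in cells named regulatory T cells, with 2291 CPM in KO and 564 CPM in WT, and Il2rb was highest in NK cells, with 1883 CPM in KO and 734 CPM in WT. Both were also higher in KO in the name that led them. Nr4a2, an immediate early nuclear receptor, had 222 CPM in KO and 20.6 CPM in WT named stem cells, against 45.1 CPM in KO and 8.31 CPM in WT B cells. Of its 138 KO UMIs in named stem cells, 1 cell gave 34. Nr4a2 was highest in NK cells in KO, with 617 CPM, and in CD8 effector cells in WT, with 178 CPM. Dgat1, an enzyme of triglyceride synthesis, had 146 CPM in KO and 10.9 CPM in WT named stem cells, against 23.2 CPM in KO and 9.59 CPM in WT B cells. It was highest in neutrophils, with 692 CPM in KO and 342 CPM in WT. Neither Nr4a2 nor Dgat1 reached 50 UMIs over both genotypes in named stem cells with at least 2 B cell markers. Tpsb2 (at least 5.58 on the log2 scale, against a floor of 3 UMIs in WT, where it had 0) and Cpa3 (3.88) came only from the cells with mast cell markers.

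The 8 genes lowest in KO named stem cells relative to WT were Hspb1, Iglc1, Mzb1, Cxcl2, Ubb, Hist1h1e, Ndufb10 and Apoe. Hspb1, a small heat shock protein, had 4 UMIs in KO and 102 UMIs in 14 WT cells (log2 ratio -4.59, interval -6.49 to -3.19), against a log2 ratio of -3.13 in B cells. Mzb1, a chaperone of immunoglobulin assembly, had 33.8 CPM in KO and 230 CPM in WT named stem cells (-3.10), against 153 CPM in KO and 376 CPM in WT B cells (-1.74). Iglc1 had log2 ratios of -3.29 in named stem cells and -2.44 in B cells. The light chain gene Igkc, added after its values were seen, had 2509 CPM in KO and 10496 CPM in WT named stem cells, against 4287 CPM in KO and 11957 CPM in WT B cells. Light chain RNA was thus lower in KO in both sets of cells.

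Ubb, a polyubiquitin gene, had 434 CPM in KO and 2430 CPM in WT named stem cells, against 465 CPM in KO and 2832 CPM in WT B cells. Its log2 ratio was -2.81 in named stem cells and -3.05 in B cells. Hist1h1e, a linker histone, had log2 ratios of -2.73 in named stem cells and -2.65 in B cells, and Ndufb10, a subunit of mitochondrial complex I encoded in the nucleus, had -2.69 in named stem cells and -1.63 in B cells. Apoe, a lipoprotein abundant in macrophages, had 182 CPM in KO and 861 CPM in WT named stem cells (-2.57), against 118 CPM in KO and 446 CPM in WT B cells (-2.36). Its level in cells named M1 macrophages was 6094 CPM in KO and 12932 CPM in WT. Cxcl2, a neutrophil attractant, had 39 UMIs in KO and 315 UMIs in WT, of which 1 WT cell gave 235. Its log2 ratio was -2.93, or -1.02 without possible doublets. In cells with at least 2 B cell markers it was -5.25, from 5 KO and 275 WT UMIs, of which the same WT cell gave 235. Of the 8 genes, all were lower in KO B cells too, with log2 ratios between -3.13 and -1.63.

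**Figure D5:**
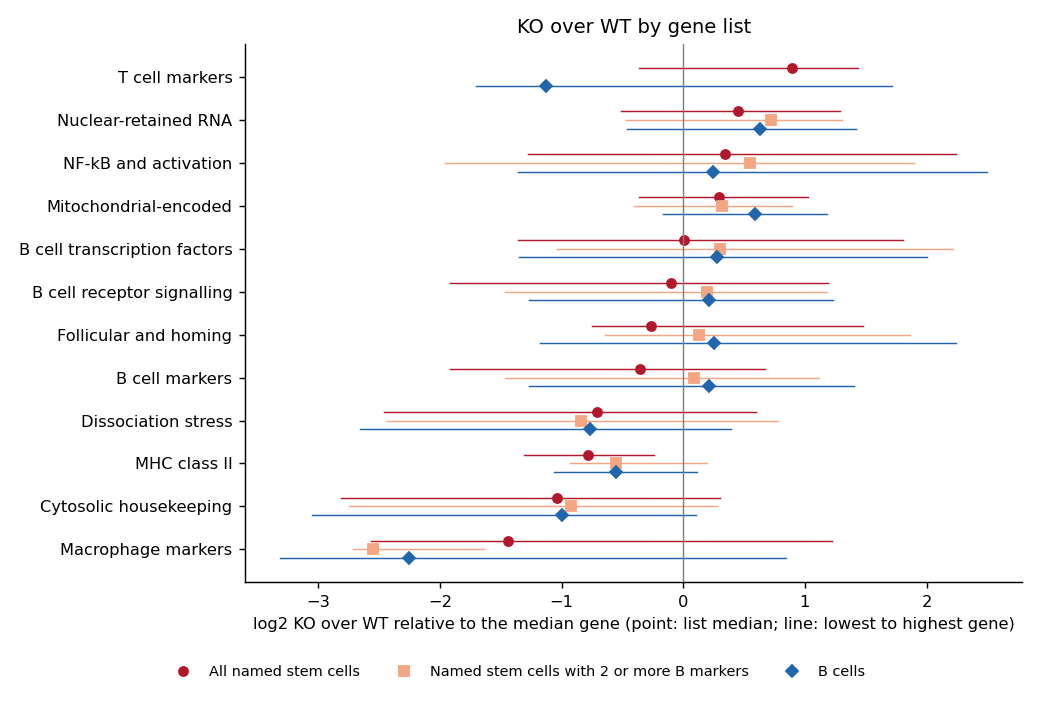
Each point is the median log2 ratio KO over WT of a gene list, relative to the median gene, and each line runs from its lowest to its highest member, for all named stem cells, named stem cells with at least 2 B cell markers, and B cells; a list with under 3 measured members is left out. B cell markers lie at -0.36 in all named stem cells, 0.08 in the marked ones and 0.21 in B cells, while housekeeping genes lie between -1.04 and -0.92 in all 3.

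By list, the same 1.5-fold criterion was passed upwards in KO by 25.3% of all genes in named stem cells and 24.5% in B cells, and downwards by 25.2% and 27.7%. Housekeeping genes were 0 higher and 9 lower in KO of 16 in named stem cells (median log2 ratio -1.04) and 0 higher and 11 lower in B cells (-0.99), with Ubb the lowest in each. Dissociation stress genes were 1 higher and 9 lower of 18 in named stem cells (-0.71) and 0 higher and 10 lower in B cells (-0.76). Jun, an AP-1 subunit, had 910 CPM in KO and 3162 CPM in WT named stem cells, against 571 CPM in KO and 2643 CPM in WT B cells. Hspa1a, the inducible heat shock protein 70, had 412 CPM in KO and 1802 CPM in WT named stem cells, against 374 CPM in KO and 924 CPM in WT B cells. Mitochondrial genes were 4 higher and 0 lower of 13 in named stem cells (0.29) and 7 higher and 0 lower in B cells (0.59).

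B cell markers were 1 higher and 5 lower in KO of 16 in all named stem cells (-0.36), 4 higher and 3 lower in the marked ones (0.08; 26.1% of all genes passed upwards and 25.1% downwards there) and 2 higher and 3 lower in B cells (0.21). By total UMIs the median in all named stem cells was -0.03. MHC class II genes were 0 higher and 7 lower of 9 in all named stem cells (-0.78), 0 higher and 4 lower in the marked ones (-0.55) and 0 higher and 3 lower in B cells (-0.55), led by H2-Eb1. H2-Eb1 had 1430 CPM in KO and 2828 CPM in WT named stem cells. B cell receptor signalling genes were 5 higher and 4 lower of 20 in named stem cells (-0.10) and 6 higher and 3 lower in B cells (0.21). B cell transcription factors were 6 higher and 4 lower of 18 in named stem cells (0.01) and 7 higher and 2 lower in B cells (0.27).

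Irf4, a factor of B cell activation, had 372 CPM in KO and 84.8 CPM in WT named stem cells, against 540 CPM in KO and 99.1 CPM in WT B cells. Cxcr4, the receptor for the chemokine Cxcl12, had 1110 CPM in KO and 318 CPM in WT named stem cells, against 1748 CPM in KO and 272 CPM in WT B cells. Cr2, the complement receptor CD21, had 330 CPM in KO and 109 CPM in WT named stem cells, against 488 CPM in KO and 122 CPM in WT B cells. Nr4a1, induced by antigen receptor signals, had 907 CPM in KO and 231 CPM in WT named stem cells, against 973 CPM in KO and 208 CPM in WT B cells. Klf2, which keeps lymphocytes quiescent and circulating, was the lowest transcription factor, with 2461 CPM in KO and 5041 CPM in WT named stem cells, against 2848 CPM in KO and 5325 CPM in WT B cells. Lists of NF-kB and activation genes, to which Nr4a1 belongs, were 10 higher and 5 lower of 22 in named stem cells (0.34) and 7 higher and 5 lower in B cells (0.25).

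T cell markers were 8 higher and 0 lower in KO of 12 in named stem cells, with a median log2 ratio of 0.90, led by Trbc1 and Trac. This median depended on the depth of the cells, with 0.05 after thinning to 500 UMIs, 0.43 with equal weight for every cell and 2.61 among cells with at least 1000 UMIs. All 4 measured NK cell markers were higher in KO (2.38), from Gzma at 0.80 to Klrc2 at 3.78. Macrophage markers were 1 higher and 6 lower of 8 in named stem cells (-1.44) and 1 higher and 7 lower of 8 in B cells (-2.25), with Apoe and Lyz2 the lowest in named stem cells. Interferon response genes were 7 higher and 3 lower of 14 in named stem cells (0.69) and 6 higher and 5 lower of 21 in B cells (0.09). In the marked cells they were 3 higher and 2 lower of 8 (0.19).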

How the data were processed

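Single-cell RNA of CD45+ sorted and total tumor cells was aligned and counted by the authors with Cell Ranger 6.0.1 and handled with Seurat 4.0.5 on mm10, per the submitters' processing notes. The deposited values are the natural log of 1 plus a gene's UMIs scaled to the same total in every cell, made by the authors, beside a deposited cell table with total UMI counts and cell type names. UMI counts were recovered from them: all 60957742 values above 0 were whole within 0.01 UMI, and the sums equalled the deposited count in all 20376 cells, the smallest with 500 UMIs and 200 genes. How the authors filtered doublets is not given in the sources used here.

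UMIs were summed per class and library. Ratios are relative to the median gene, for genes with at least 50 UMIs and 2-fold, or 20 UMIs and 1.5-fold in lists. A count of 0 was set against a floor of 3 UMIs. Intervals at 95% (exact Poisson, Clopper-Pearson, and conditional binomial for ratios) cover counting error only. Cells were thinned to 500 UMIs with a fixed seed. Named genes are all B cell and blood stem cell markers; the 8 highest and 8 lowest genes KO over WT with at least 100 UMIs and 100 CPM in 1 genotype; the 8 highest and lowest of named stem cells over B cells past 2-fold in both genotypes; and list members of largest ratio. Other genes were chosen after their values were seen: Igkc, H2-Aa, Cr2, Nr4a1 and Emb. The members and lists were chosen with earlier results of these data known. Alternatives changed the scaling, minimum UMIs, cell filters, weighting and thinning. Those without cells with mast cell markers, by B cell markers, by the 1500 UMI limit and by locus length were added after seeing the data. Steps were tested on simulated data, in Python 3.11.15 with numpy 2.4.6 and scipy 1.17.1. Some members of the lists and of the named genes are not reported here.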

Additional observations from a re-analysis of the deposited data

Results flagged for a closer look

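Rgs1, a regulator of G protein signalling, went opposite ways in the classes relative to the median gene. Its log2 ratio KO over WT was 0.85 in named stem cells (318 UMIs in KO and 187 in WT) and -0.71 in B cells (140 UMIs in KO and 235 in WT). By total UMIs the log2 ratio was 1.17 in named stem cells and -0.26 in B cells. Among named stem cells with at least 2 B cell markers it was 0.40 relative to the median gene, with an interval of -0.06 to 0.85 that includes 0. The difference between the classes was not tested. In named stem cells 238 KO and 99 WT UMIs lay in cells with 0 or 1 B cell marker, and the part of that cell makeup in the result was not tested.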

How the results depend on the processing

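No paired analysis was possible because each cell carries only the name of its group, so every group is 1 library with no replicate to leave out. Direction was checked for named genes past 2-fold and for KO over WT list medians past 1.5-fold, and none of these turned. Other genes were not checked singly. The balance of genes past 2-fold did turn. KO over WT it went from 363 higher and 552 lower to 758 and 280 by total UMIs. For WT named stem cells over B cells it went from 181 and 132 to 78 and 163 under 10% mitochondrial UMIs.

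With only cells under 10% mitochondrial UMIs, the named stem cells were 4.32% of sorted cells in KO and 4.06% in WT, with medians of 1977 UMIs in KO and 2918.5 in WT. B cell markers were then in 78.1% of KO and 94.5% of WT cells, at 13648 CPM in KO and 13380 CPM in WT. With at least 1000 UMIs the share was 5.44% in KO and 5.01% in WT, the mitochondrial median 9.04% in KO and 5.16% in WT, and B cell markers were in 70.6% of KO and 91.7% of WT cells, at 11661 CPM in KO and 13177 CPM in WT. Between 500 and 2000 UMIs the mitochondrial median was 21.2% in KO and 17.4% in WT. Without possible doublets the share was 11.6% in KO and 10.3% in WT, and B cell markers stood at 15078 CPM in WT. Among cells named stem cells or B cells the share was 32.6% in KO and 31.4% in WT. At least 1 B cell marker was in 67.6% of KO cells. Under 1500 UMIs B cell markers were in 47.2% of KO and 75.3% of WT cells, and above in 80.9% of KO and 93.0% of WT. Their sum was 15322 CPM in KO and 22519 CPM in WT without mitochondrial and ribosomal protein UMIs, and 10368 CPM in KO and 17717 CPM in WT after thinning.

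Genes past 2-fold between KO and WT numbered 915, or 604 under 10% mitochondrial UMIs, 336 after thinning, 1752 with at least 20 UMIs and 5439 with at least 1 UMI. Lists with a median past 1.5-fold numbered 11, or 17 by total UMIs, 7 after thinning and 6 among cells with B cell markers. Named stem cells over B cells in KO gave 429 genes (276 higher and 153 lower), or 256 under 10% mitochondrial UMIs (107 higher and 149 lower), 819 with equal weight per cell (408 higher and 411 lower), 1060 with at least 20 UMIs and 4488 with at least 1 UMI. In WT they gave 313 genes (181 higher and 132 lower), or 241 under 10% mitochondrial UMIs (78 higher and 163 lower), 246 with at least 1000 UMIs (108 higher and 138 lower), 962 with equal weight (400 higher and 562 lower), 839 with at least 20 UMIs and 4099 with at least 1 UMI. The cause of these shifts was not tested. The median ratio of B cell markers between the genotypes lay on either side of 0, from -0.57 with equal weight to 0.08 in cells with B cell markers. Of the shares, medians and counts above, 46 values moved under an alternative and 38 did not. Of the other values, 21 list medians moved beyond the quartiles of their members and 175 did not, while 59 named gene ratios moved beyond their counting interval and 306 did not. Single genes are limited by depth, since a cell of 500 UMIs shows few RNAs per gene, and all comparisons by having 1 library per group.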

Other observations

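Of all genes, 17.8% passed the 1.5-fold criterion upwards and 13.9% downwards in KO named stem cells against KO B cells. In WT these shares were 16.4% and 13.2%. Chemokines and their receptors were 8 higher and 3 lower of 12 measured in KO (median log2 ratio 1.28), and 6 higher and 0 lower of 11 in WT (0.80). Apoptosis genes were 5 higher and 0 lower of 14 in KO (0.26) and 3 higher and 1 lower of 15 in WT (0.24). Cdkn1a, a cell cycle inhibitor induced by p53, led that list in both, with log2 ratios of 3.60 in KO and 3.43 in WT. Genes of B1 and marginal zone B cells were 6 higher and 2 lower of 11 in KO (0.64) and 2 higher and 1 lower of 6 in WT (0.32), with Cd5 and Ctla4, which T cells also express, leading in KO.

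Between KO and WT named stem cells, 25.3% of all genes passed the same criterion upwards and 25.2% downwards. Chemokines and their receptors were 4 higher and 3 lower of 13 (0.11), near these shares. Apoptosis genes were 5 higher and 1 lower of 12 (0.52). Germinal center and cell cycle genes were 2 higher and 0 lower of 8 (0.52), an upward share close to that of all genes. Plasma cell genes were 2 higher and 1 lower of 3 (0.86), with Irf4 highest and Mzb1 lowest. Emb, an adhesion protein, had 698 CPM in KO and 89.7 CPM in WT named stem cells, against 8.94 CPM in KO and 7.35 CPM in WT B cells. Of its UMIs, 418 of 434 in KO and 64 of 74 in WT lay in cells with 0 or 1 B cell marker.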
